A study of Caenorhabditis elegans with 12 samples.

Results

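The later-found microRNAs described here are the products numbered miR-786 or higher in a small RNA survey of ageing Caenorhabditis elegans, apart from 11 numbers left out by the rule that chose them (miR-790, miR-791, miR-793, miR-794, miR-795, miR-797, miR-1018, miR-1020, miR-1821, miR-2208 and miR-2209). The rule used the names alone and no measured value, but the members were chosen with earlier results of these data known. It selected 46 mature arms from 41 microRNA names, of the 213 arms in the deposited table. Small RNA was sequenced from whole worms at day 5 and at day 0 of adulthood. The mutants were strain MT12993, which carries mir-71(n4115), a deletion allele of mir-71. The controls were wild-type N2. Worms of all 4 groups grew at 20 °C. As they became adults they were moved to plates with 0.1 mg/mL 5-fluorodeoxyuridine, a drug that blocks DNA synthesis. The groups share its concentration, but time on the drug grew with adult age. Age and time on the drug therefore cannot be told apart between day 5 and day 0. Each group had 3 libraries, which the submitters describe as biological replicates. The study's title places the comparison in ageing, and mir-71 is known as a microRNA that promotes long life.

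MicroRNAs are cut from hairpin precursors, and either arm of the hairpin, called 5p or 3p, can be loaded into an Argonaute protein and direct the silencing of messenger RNAs. They are numbered in the order in which they were registered, so that a high number marks a microRNA found after the abundant and conserved ones, often by deep sequencing. Some are encoded between genes, others in introns, and a mirtron is an intron that is itself the precursor. Few of the nematode microRNAs described here have a known function. mir-786 is one, since it acts with its neighbour mir-240 in the intestine, where it is needed for the regular rhythm of defecation.

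The deposited values are normalised reads, that is read numbers divided by a factor for each library. The read numbers they imply ran from 917170 to 4070663 per library, of which between 2231 and 8804 came from the 46 arms. As the labels call for, miR-71-5p was lower in mutants than in N2, with a log2 difference of −9.56 at day 5. The library median over all 213 microRNAs lay between 77.1 and 289.9 normalised reads, and replicate 1 of the mutants at day 5 was the highest. Calls that were lost when that library was left out are named beside the counts.

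Together the 46 arms were a small part of each library, between 0.129% and 0.302% of the microRNA signal. Their share was 0.234 ± 0.0167% in mutants at day 5 and 0.272 ± 0.0347% in mutants at day 0 (SD, n = 3 each). In N2 it was 0.161 ± 0.0286% at day 5 and 0.224 ± 0.0211% at day 0 (SD, n = 3 each). The mean level over the 12 libraries ran from 5.65 to 946 normalised reads, with a median of 24.7 against 283 for the 167 other microRNAs. Of the 46, 18 had a mean under 20 normalised reads and 32 a mean under 100.

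The 6 most abundant members were miR-1820-5p (mean 946 normalised reads), miR-5592-3p (546), miR-1829a-5p (387), miR-787-3p (386), miR-1022-5p (335) and miR-1829c (234). miR-1820-5p, which ranked 62 among the 213, had 1989, 598 and 961 normalised reads in mutants at day 5, against 296, 386 and 675 in N2 at day 5. At day 0 it had 1377, 725 and 1713 in mutants and 972, 792 and 869.7 in N2. It passed the test in no comparison, with log2 changes at day 5 against day 0 of −0.19 ± 0.49 in mutants (SE, limma adjusted p = 0.805) and −1.04 ± 0.49 in N2 (limma adjusted p = 0.12). miR-1829a-5p, the other of these 6 with no call, had 981, 424 and 582 normalised reads in mutants at day 5, against 263, 234.6 and 319 in N2 at day 5. Its mutant and N2 values at day 5 did not overlap, but the difference of 1.20 ± 0.45 missed the threshold (limma adjusted p = 0.0576).

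At the other end, 7 of the 46 had no read in at least 1 library. The 3 scarcest were miR-2216-5p (mean 5.65 normalised reads, the lowest of all 213), miR-4814-3p (6.15) and miR-5549-3p (7.40). miR-2216-5p had 14.8, 5.19 and 7.16 normalised reads in mutants at day 5 and 10.8, 0 and 9.48 in mutants at day 0. N2 worms had 1.23, 3.94 and 0.865 at day 5 and 6.20, 3.35 and 4.79 at day 0. These values stand for 39 reads at day 5 and 32 at day 0 over both strains. miR-4814-3p had 6.17, 4.67 and 6.26 normalised reads in mutants at day 5, against 1.23, 1.69 and 6.92 in N2 at day 5. At day 0 it had 7.24, 8.35 and 6.32 in mutants and 7.44, 11.2 and 6.38 in N2. Neither microRNA passed a test in any comparison.

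**Figure D1:**
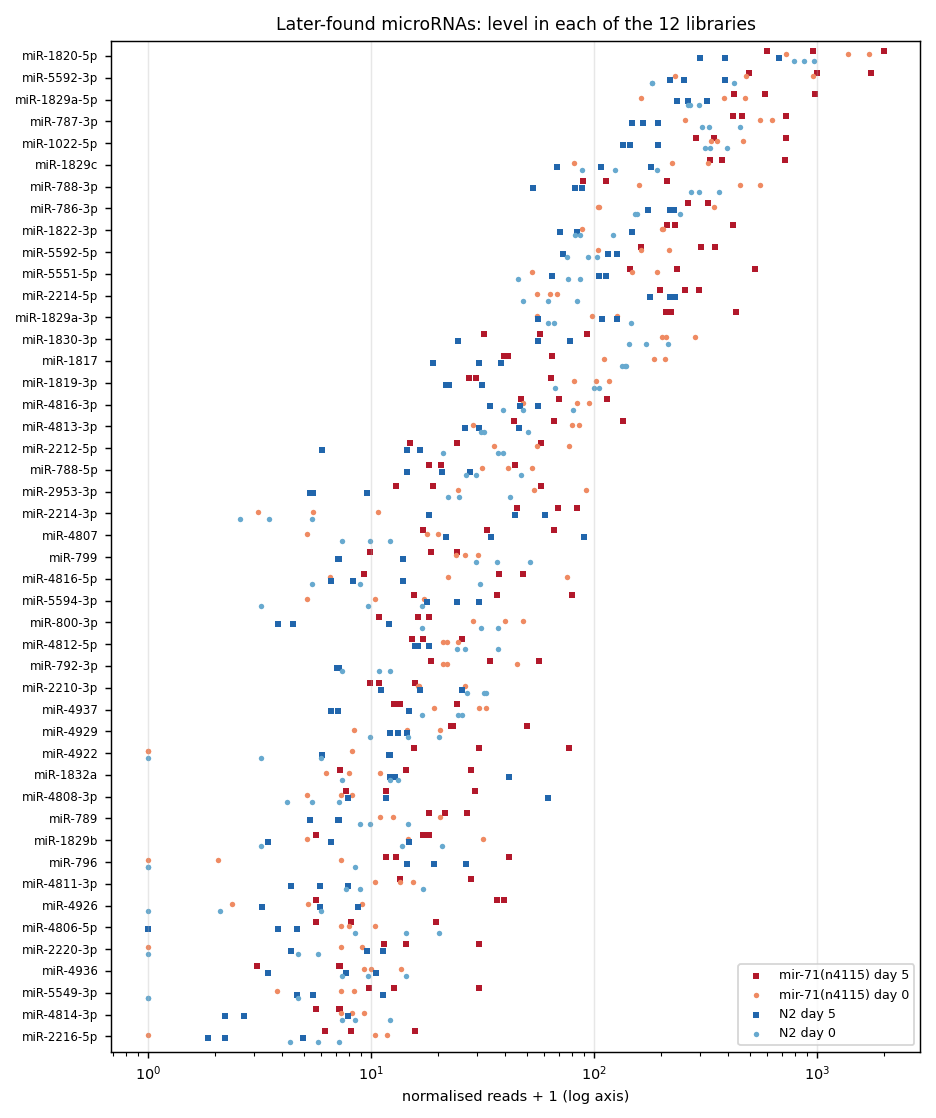
Normalised reads plus 1 (log axis) of the 46 later-found microRNAs in each of the 12 libraries, ordered by mean level, with 3 points per group. Levels run from a mean of 5.65 for miR-2216-5p to 946 for miR-1820-5p, and points at the left edge are libraries with no read.

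Level followed the registration number only loosely. The 11 members numbered from 1000 to below 2000 had a median level of 142 normalised reads. The 9 below 1000 had a median of 22.4, the 7 from 2000 to below 3000 one of 28.3 and the 19 at 4000 or above one of 18.04. miR-5592-3p, from the last block, was nevertheless the second most abundant member. The spread between replicates of a group, as the residual SD on the log2 scale, had a median of 0.619 among the members and 0.670 among the other 167 microRNAs. It ran from 0.265 for miR-4812-5p to 1.29 for miR-4816-5p.

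The members' precursors lay at 44 annotated loci of the WBcel235 genome. Of these, 19 (43.2%) were on chromosome X, compared with 32 of the 108 loci (29.6%) of the other measured microRNAs. In all, 22 loci overlapped a protein-coding gene, of which 17 lay in an intron on the gene's own strand. The annotated precursors of mir-4816 (65 bases, in T09B4.2) and mir-4926 (52 bases, in ari-1.3) span their intron from end to end, the arrangement of a mirtron. Host genes included gas-1, a subunit of mitochondrial complex I, for mir-1829a; piki-1, a phosphoinositide 3-kinase, for mir-1829c and mir-4812; and gmps-1, a GMP synthase, for mir-2216. miR-4922, miR-5592 and miR-789 each had more than 1 annotated locus, so their reads cannot be assigned to one of them. The 2 annotated precursors of miR-5592 overlap by 62 bases on opposite strands in an intron of aakb-1, a subunit of the energy sensor AMP-activated kinase.

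At day 5 against day 0, taken over both strains, the later-found microRNAs split into risers and fallers of about equal number. Both arms of mir-2214, miR-796 and miR-4922 rose, as did 3 microRNAs encoded close together on chromosome X. miR-1817, miR-1830-3p, miR-800-3p, miR-788-3p, miR-1819-3p and miR-2953-3p were among those that fell. The test compared log2(normalised reads + 1) in 6 libraries at day 5 with 6 at day 0, the strain difference being removed by the group means. This scale understates the changes of scarce microRNAs. limma called 19 of the 46 at an adjusted p under 0.05, 10 higher and 9 lower at day 5. That is 41.3% of the members, against 33.8% of all 213 microRNAs (16.4% higher and 17.4% lower). The median change was −0.07 among the members and −0.11 among all 213. In bulk samples of whole worms, a change in the number of cells that make a microRNA and a change in its amount per cell cannot be told apart.

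mir-2214, in an intron of B0361.11 on chromosome III (7278715 to 7278778, plus strand), had the largest rise by its 3p arm. Its 3p arm had 67.8, 44.1 and 83.2 normalised reads in mutants at day 5, against 4.52, 9.74 and 2.11 in mutants at day 0. In N2 the 3p arm had 17.1, 59.6 and 43.2 at day 5, against 2.48, 4.46 and 1.60 at day 0. All 6 libraries at day 5 lay above all 6 at day 0, with 403 reads in total at day 5 and 21 at day 0. The log2 change over both strains was 3.40 ± 0.42 (SE, limma adjusted p = 5.83e-05). The more abundant 5p arm had 295, 197 and 254 normalised reads in mutants at day 5, against 62.4, 54.3 and 67.4 in mutants at day 0. In N2 the 5p arm averaged 209 ± 27.6 at day 5 and 63.8 ± 18.1 at day 0 (SD, n = 3 each), with single values of 229, 219 and 177 at day 5 and 47.1, 61.4 and 82.98 at day 0. Its day 5 values, from 177 to 295, did not overlap its day 0 values, from 47.1 to 83.0. The change was 1.85 ± 0.26 (limma adjusted p = 0.000103).

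miR-796, from a gene on chromosome X (1798928 to 1799016, minus strand) between protein-coding genes, was near the limit of detection at day 0. It had 40.7, 11.9 and 10.7 normalised reads in mutants at day 5, against 6.33, 0 and 1.05 in mutants at day 0. N2 had 25.7, 13.5 and 18.2 at day 5, against 7.44, 0 and 0 at day 0. The day 5 and day 0 values did not overlap, and 134 reads at day 5 stood against 14 at day 0. The change over both strains was 3.08 ± 0.63 (limma adjusted p = 0.00181). miR-4922 had 76.5, 14.5 and 29.5 normalised reads in mutants at day 5, against 7.24, 0 and 0 in mutants at day 0. Its values in N2 were 11.03, 5.06 and 11.2 at day 5, against 4.96, 2.23 and 0 at day 0. The mutant values at day 5 were all above those at day 0, and the N2 values were too, but the lowest day 5 value of N2 was below the highest day 0 value of the mutants. Its change was 2.94 ± 0.63 (limma adjusted p = 0.00198), from 154 reads at day 5 and 14 at day 0.

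The genes mir-4807, mir-4808 and mir-2220 lie in that order on the plus strand of chromosome X between 1872466 and 1873884. Between the first 2 are 425 bases. The last 2 are 818 bases apart, with mir-4809, a microRNA gene that was not measured, between them. All 3 measured arms rose. miR-4807 had 65.4, 16.1 and 32.2 normalised reads in mutants at day 5, against 18.99, 4.17 and 16.9 in mutants at day 0. The N2 libraries held 89.4, 20.8 and 33.7 at day 5, against 11.2, 8.92 and 6.38 at day 0. N2 showed no overlap between the ages, while the mutant ranges overlapped, and the change was 1.77 ± 0.47 (limma adjusted p = 0.00979). miR-2220-3p had 29.6, 10.4 and 13.4 normalised reads in mutants at day 5, against 8.14, 0 and 6.32 at day 0, without overlap. In N2 its values overlapped, with 8.58, 3.38 and 10.4 at day 5 and 3.72, 0 and 4.79 at day 0. Its change of 1.73 ± 0.62 was close to the threshold (limma adjusted p = 0.0416). miR-4808-3p, named after its values were seen, changed by 1.37 ± 0.51 (limma adjusted p = 0.0495). In replicate 1 of N2 at day 5, miR-4807 (89.4) and miR-4808-3p (61.3) were both higher than in any other library. A further gene downstream on the same strand, mir-1018, which is not a member, had a change of 1.99 ± 0.50 (limma adjusted p = 0.00663). The calls of miR-2220-3p and miR-4808-3p were each lost when single libraries were left out, with adjusted p-values of up to 0.108 and 0.135.

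**Figure D2:**
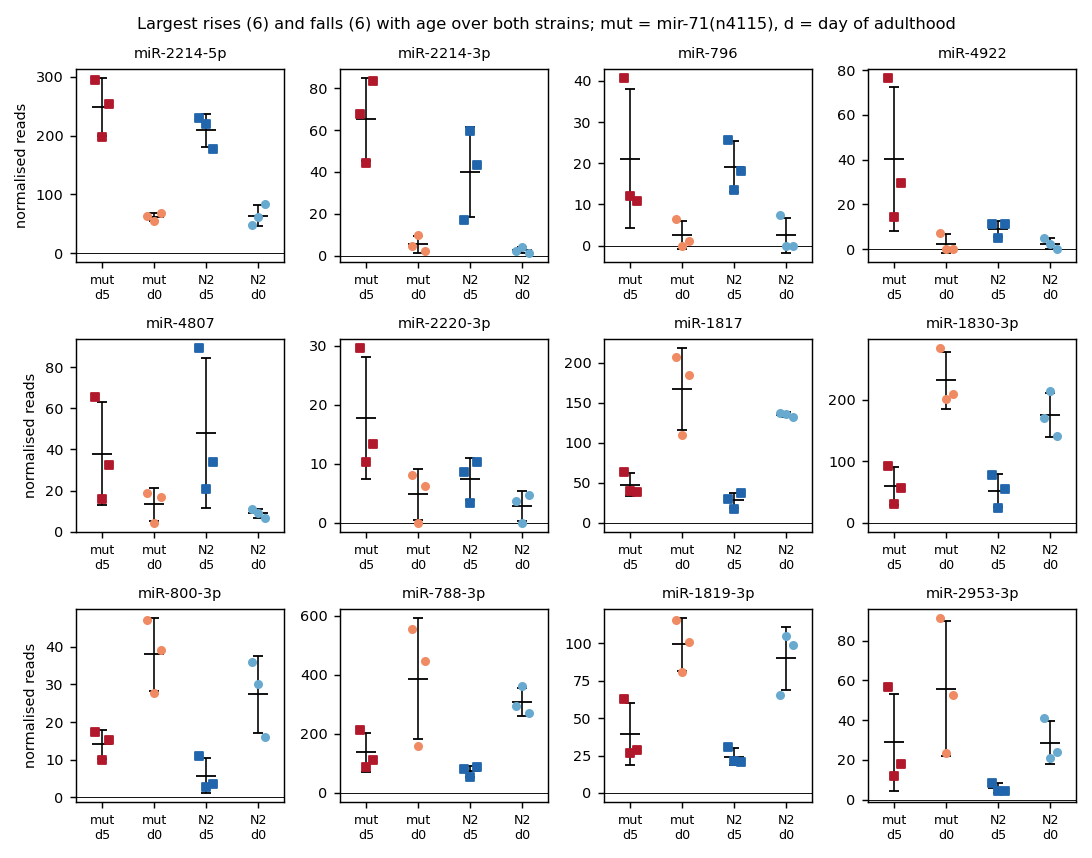
Normalised reads of the 6 largest called rises and the 6 largest called falls over both strains, per library (points), with the mean and SD of each group of 3 (bars). From left to right in each panel stand mir-71(n4115) mutants at day 5 and day 0, then N2 at day 5 and day 0. For miR-2214-5p, miR-2214-3p, miR-796, miR-1817, miR-1830-3p and miR-1819-3p the day 5 and day 0 values do not overlap.

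The 3 other rises were those of miR-5549-3p (1.66 ± 0.52, limma adjusted p = 0.0237) and, named after their values were seen, miR-5594-3p (1.71 ± 0.50, 0.0157) and miR-4926 (1.65 ± 0.61, 0.0458). miR-4926, the product of a whole annotated intron, had 35.8, 4.67 and 38.5 normalised reads in mutants at day 5, against 8.14, 1.39 and 4.21 at day 0. In N2 it had 4.901, 2.25 and 7.78 at day 5, against 4.96, 1.11 and 0 at day 0, and the ranges overlapped in both strains. miR-5549-3p, among the 3 scarcest members, had 29.6, 8.83 and 11.6 normalised reads in mutants at day 5, against 6.33, 2.78 and 7.37 at day 0. N2 worms had 3.68, 4.50 and 10.4 at day 5, against 3.72, 0 and 0 at day 0. N2 thus rested on 23 reads at day 5 and 3 at day 0, a ratio of 4.76 in normalised reads with a 95% exact counting interval of 1.44 to 24.8. Without single libraries the adjusted p of miR-4926 reached 0.138 and that of miR-5549-3p 0.0608, whereas miR-5594-3p stayed under the threshold in each of the 12 such fits.

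Among the falls, miR-1817, from a gene on chromosome I (10869370 to 10869474, minus strand), had the largest. It had 64.2, 39.99 and 38.5 normalised reads in mutants at day 5, against 208, 109.9 and 184 in mutants at day 0. N2 had 29.4, 18.00 and 37.2 at day 5, against 138, 136 and 132 at day 0. The 6 values at day 5 were all below the 6 at day 0, and the change over both strains was −2.03 ± 0.30 (limma adjusted p = 0.000118). miR-1830-3p, from an intron of paic-1 on chromosome II, had 92.5, 31.2 and 56.4 normalised reads in mutants at day 5, against 284, 202 and 209 at day 0. Its values in N2 were 77.2, 23.6 and 55.3 at day 5, against 169.9, 214 and 142 at day 0. Here too the ages did not overlap, with a change of −1.96 ± 0.35 (limma adjusted p = 0.000797).

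mir-1819 and mir-2212 lie 66 bases apart on the plus strand of chromosome X (16207829 to 16208035), and the measured arm of each fell. miR-1819-3p had 62.9, 26.5 and 28.6 normalised reads in mutants at day 5, against 116, 80.7 and 101 at day 0. The N2 libraries held 30.6, 21.4 and 20.8 at day 5, against 65.7, 105 and 98.9 at day 0. All day 5 values of miR-1819-3p were below all its day 0 values, and it changed by −1.62 ± 0.31 (limma adjusted p = 0.00105). miR-2212-5p, named after its values were seen, changed by −1.21 ± 0.40 (limma adjusted p = 0.0309), and its ages overlapped in mutants but not in N2. Its call did not hold without single libraries (adjusted p of up to 0.0884).

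miR-788-3p, encoded on chromosome X, had 212, 88.3 and 112 normalised reads in mutants at day 5, against 555, 159 and 449 in mutants at day 0. N2 values were 80.9, 52.3 and 87.3 at day 5, against 294, 361 and 271 at day 0, without overlap. Replicate 2 of the mutants at day 0, with 159, lay below the highest day 5 value of 212. Its change was −1.74 ± 0.35 (limma adjusted p = 0.00147). miR-800-3p, also from chromosome X, had 17.3, 9.87 and 15.2 normalised reads in mutants at day 5, against 47.03, 27.8 and 38.98 at day 0. In N2 it had 11.03, 2.81 and 3.46 at day 5, against 35.97, 30.1 and 15.96 at day 0. Within each strain the ages were separate, and the change was −1.78 ± 0.38 (limma adjusted p = 0.00198).

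miR-2953-3p, from an intron of F41G3.5, had 56.7, 11.9 and 17.9 normalised reads in mutants at day 5, against 91.3, 23.7 and 52.7 at day 0. N2 worms had 8.58, 4.50 and 4.32 at day 5, against 40.9, 21.2 and 23.9 at day 0. The ages were separate in N2 and overlapped in mutants, with a change of −1.58 ± 0.44 (limma adjusted p = 0.0122). The other 2 falls were those of miR-799 (−1.40 ± 0.35, limma adjusted p = 0.00663) and, named after its values were seen, miR-4937 (−1.02 ± 0.36, 0.0375). The adjusted p of miR-4937 rose to 0.0951 without single libraries.

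Of the 19 calls over both strains, 13 held in every fit that left out 1 library, and all 19 held when libraries were scaled instead to equal totals, by the trimmed mean of M-values or to equal medians. In 6 of the 46 members (13%) the 6 day 5 values and the 6 day 0 values did not overlap, against 9.39% of all 213. The numbers of calls in each direction did move with the scaling, to 12 higher and 18 lower with equal totals, 14 higher and 9 lower by the trimmed mean of M-values and 18 higher and 9 lower with equal medians. In that order these scalings called 127, 94 and 97 of all 213 microRNAs and moved their median change by −0.26, 0.085 and 0.20. When mutant replicate 1 of day 5 was dropped, the calls were 6 higher and 14 lower, against 24 and 57 of all 213. The calls of miR-2220-3p (limma adjusted p = 0.0887), miR-4808-3p, miR-4926 and miR-5549-3p were then lost. Of the 22 members encoded between protein-coding genes, 6 rose and 7 fell (median −0.47), and of the 21 in introns of the same strand, 4 rose and 2 fell (median 0.46). The 21 include both arms of miR-5592, which also has an annotated precursor in an intron on the opposite strand. That split by position was made after the values were seen and was not tested. By registration number, the rises were 1 of 9 below 1000, 0 of the next 11, 3 of 7 from 2000 to below 3000 and 6 of 19 at 4000 or above. The falls numbered 3, 3, 2 and 1 in the same order. This split was not tested either. Over all 213 microRNAs, 16.4% were called higher and 17.4% lower. The 2 arms of mir-2214 count separately in both splits, among the rises from 2000 to below 3000 and among those in introns.

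**Figure D3:**
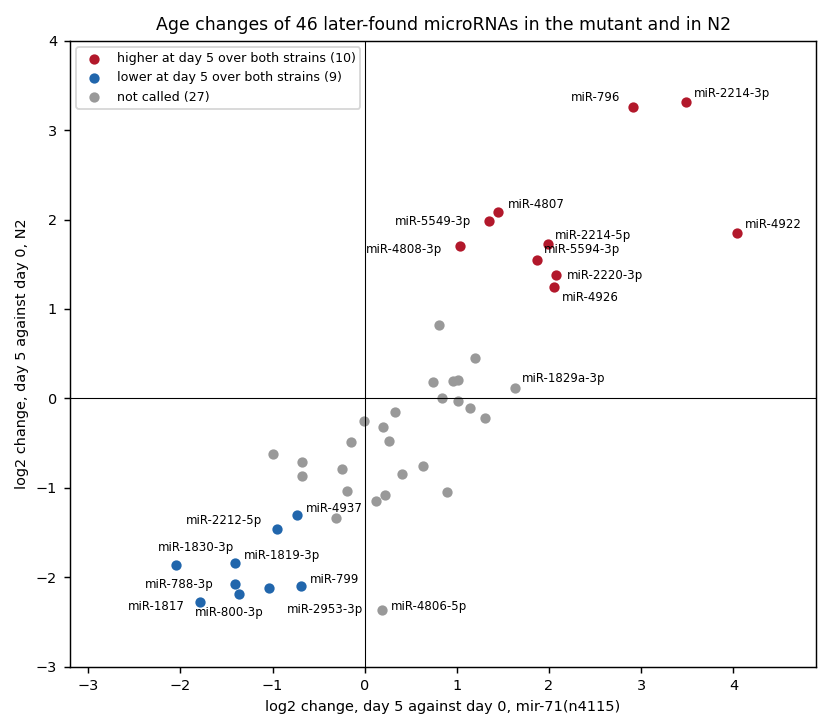
Log2 change of each of the 46 microRNAs between day 5 and day 0 in mir-71(n4115) mutants (horizontal axis) and in N2 (vertical axis), from limma. Red marks the 10 called higher at day 5 over both strains, blue the 9 called lower and grey the other 27. For all 19 called members the 2 estimates have the same sign, and miR-4806-5p and miR-1829a-3p are labelled because each was called in 1 strain.

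In mutants alone, 8 of the 46 passed the test, 5 higher and 3 lower at day 5. That is 17.4% of the members against 13.6% of all 213, of which 9.86% were higher and 3.76% lower. miR-4922 (4.04 ± 0.89, limma adjusted p = 0.0096), miR-2214-3p (3.49 ± 0.60, 0.00426), miR-796 (2.91 ± 0.89, 0.04), miR-2214-5p (1.99 ± 0.37, 0.00488) and miR-1829a-3p (1.63 ± 0.49, 0.0398) rose. The falls were those of miR-1830-3p (−2.04 ± 0.49, limma adjusted p = 0.0119), miR-1817 (−1.78 ± 0.42, 0.0119) and miR-1819-3p (−1.41 ± 0.43, 0.04). The median change was 0.37 among the members and 0.28 among all 213, the second of which turned to −0.125 when replicate 1 of the day 5 mutants was left out. The number of members with a positive change was then 23 instead of 29. miR-1829a-3p had 430.5, 221 and 209 normalised reads in mutants at day 5, against 126, 54.3 and 96.9 at day 0, with no overlap. In 17 of the 46 (37%) the mutant ages did not overlap, against 26.8% of all 213.

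With the replicate number as a block common to all 4 groups, mutants and N2 alike, 17 members passed in mutants, 12 higher and 5 lower. Of all 213, 67 passed, 45 higher and 22 lower. Without the block, the count of 8 moved with single libraries. It was 2 (6 of all 213) when replicate 3 of the day 5 mutants was dropped. It was 4 (14 of all 213) without replicate 3 of the day 0 mutants and 5 (24) without replicate 2 of day 5 N2. Dropping replicate 1 of the day 5 mutants gave 3 higher and 4 lower, against 6 and 16 of all 213. In that last fit miR-796 (2.32, limma adjusted p = 0.143) and miR-1829a-3p (1.29, 0.109) lost their calls. When limma was fitted to the mutant groups only, miR-2214-3p was the 1 member called (adjusted p = 0.0312), and the 7 other adjusted p-values ran from 0.0774 to 0.221. Under other scalings the 8 calls were kept and others joined them, giving 6 higher and 11 lower with equal totals, 6 higher and 8 lower by the trimmed mean of M-values, and 13 higher and 7 lower with equal medians. In that order the scalings called 71, 56 and 75 of all 213 and moved the median change of all 213 by −0.52, −0.32 and −0.10.

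In N2, 12 of the 46 passed, 4 higher and 8 lower at day 5. These were 26.1% of the members, against 23.5% of all 213 (7.51% higher and 16% lower), and the median change was −0.40 among the members and −0.48 among all 213. The rises were those of miR-2214-3p (3.32 ± 0.60, limma adjusted p = 0.00229), miR-796 (3.26 ± 0.89, 0.0166), miR-4807 (2.09 ± 0.67, 0.037) and miR-2214-5p (1.72 ± 0.37, 0.00765). Of the falls, 6 were of microRNAs whose library values stand above, namely miR-1817 (−2.28), miR-800-3p (−2.19), miR-2953-3p (−2.12), miR-788-3p (−2.08), miR-1830-3p (−1.87) and miR-1819-3p (−1.84), with limma adjusted p-values from 0.00229 to 0.023.

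The other falls in N2 were those of miR-799 and miR-4806-5p. miR-799 had 6.13, 6.19 and 12.97 normalised reads in N2 at day 5, against 50.9, 35.7 and 28.7 in N2 at day 0, with no overlap and a change of −2.10 ± 0.49 (limma adjusted p = 0.0101). In mutants it had 23.4, 17.7 and 8.95 at day 5 and 25.3, 29.2 and 23.2 at day 0, which overlapped. miR-4806-5p, from an intron of ras-1, had 3.68, 2.81 and 0 normalised reads in N2 at day 5, against 7.44, 13.4 and 19.1 in N2 at day 0. The N2 ages were separate, and the change was −2.37 ± 0.69 (limma adjusted p = 0.023). In mutants miR-4806-5p had 18.5, 4.67 and 7.16 at day 5 and 6.33, 6.96 and 9.48 at day 0, a change of 0.19 ± 0.69 (limma adjusted p = 0.884).

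In 24 of the 46 (52.2%) the N2 ages did not overlap, against 46.9% of all 213. Without replicate 2 of N2 at day 0, the count in N2 fell to 3, and that over all 213 to 10. The 3 were miR-2214-3p, miR-2214-5p and miR-1817, which held in each of the 12 fits that left out a library. All 12 calls were kept under the 3 other scalings, but the split became 8 higher and 13 lower with equal totals, 10 higher and 9 lower with equal medians, and 9 higher and 8 lower by the trimmed mean of M-values. Of all 213, these scalings called 94, 75 and 72 in that order. The last 2 scalings each moved the median change of all 213 microRNAs by 0.51, and equal totals moved it by 0.006.

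Of the 5 members that rose in mutants and the 4 that rose in N2, 3 were shared, 60% and 75% of each list (miR-2214-3p, miR-2214-5p and miR-796). Of the 3 that fell in mutants and the 8 that fell in N2, 3 were shared, 100% and 37.5% of each list (miR-1817, miR-1819-3p and miR-1830-3p). Whether the age change differed between the strains was tested as an interaction. None of the 46 passed, nor any of the 211 microRNAs other than the mir-71 products (0%). An unadjusted p under 0.05 in limma was seen in 4 of the 46 members, against 25 of all 211. The smallest limma adjusted p among the members was 0.398. miR-4806-5p had the largest difference, its age change being 2.55 ± 0.97 higher in mutants than in N2 on the log2 scale (limma adjusted p = 0.398). The other values of this test ran down to −0.68.

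At day 5, mutants had more of many later-found microRNAs than N2, and 11 of the 46 passed the test, all of them higher. This was 23.9% of the members, against 22.7% of the 211 microRNAs other than the mir-71 products, of which 48 were higher and 0 lower, so the members' share was close to that of all microRNAs. The median difference was 1.15 among the members and 0.98 among all 211, and 40 of the 46 and 185 of the 211 were positive. These values depended on the scaling of the libraries. Of the 46 members, 33 were positive with equal totals, 29 with equal medians and 26 by the trimmed mean of M-values. Equal totals moved the median of all 211 by −0.66, equal medians by −0.83 and the trimmed mean of M-values by −1.05.

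miR-792-3p had the largest difference. It had 55.5, 17.7 and 33.1 normalised reads in mutants at day 5, against 6.13, 6.19 and 6.05 in N2 at day 5. The groups were separate, and the difference was 2.21 ± 0.52 (SE, limma adjusted p = 0.0131). It was the only one of the 11 to keep its call under all 3 other scalings, with differences of 1.58 (adjusted p = 0.0108) with equal totals, 1.44 (0.0272) with equal medians and 1.23 (0.0446) with the trimmed mean of M-values. At day 0 miR-792-3p had 44.3, 20.9 and 20.01 in mutants and 9.92, 11.2 and 6.38 in N2, again without overlap, and the difference of 1.47 ± 0.52 did not pass (limma adjusted p = 0.903). Its gene lies 348 bases from mir-1821 on the minus strand of chromosome V. miR-1821, which is not a member, had a day 5 difference of 2.41 ± 0.47 (limma adjusted p = 0.00773).

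miR-1829c had 719, 329 and 373 normalised reads in mutants at day 5, against 67.4, 106 and 179.8 in N2 at day 5, a difference of 2.02 ± 0.54 (limma adjusted p = 0.019). Its groups were separate, and the call held with equal totals (1.35) and equal medians (1.19) but not with the trimmed mean of M-values (0.97, adjusted p = 0.112). miR-2953-3p had 56.7, 11.9 and 17.9 in mutants and 8.58, 4.50 and 4.32 in N2, a difference of 1.88 ± 0.62 (limma adjusted p = 0.0392). miR-5592-3p had 1744, 496 and 1002 in mutants and 254, 218 and 386 in N2, a difference of 1.78 ± 0.57 (limma adjusted p = 0.038). miR-787-3p had 724, 461 and 421 in mutants and 147, 164 and 194 in N2, a difference of 1.63 ± 0.42 (limma adjusted p = 0.0148). These 3 were also separate between the strains, and under the other scalings they were called with equal totals only.

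**Figure D4:**
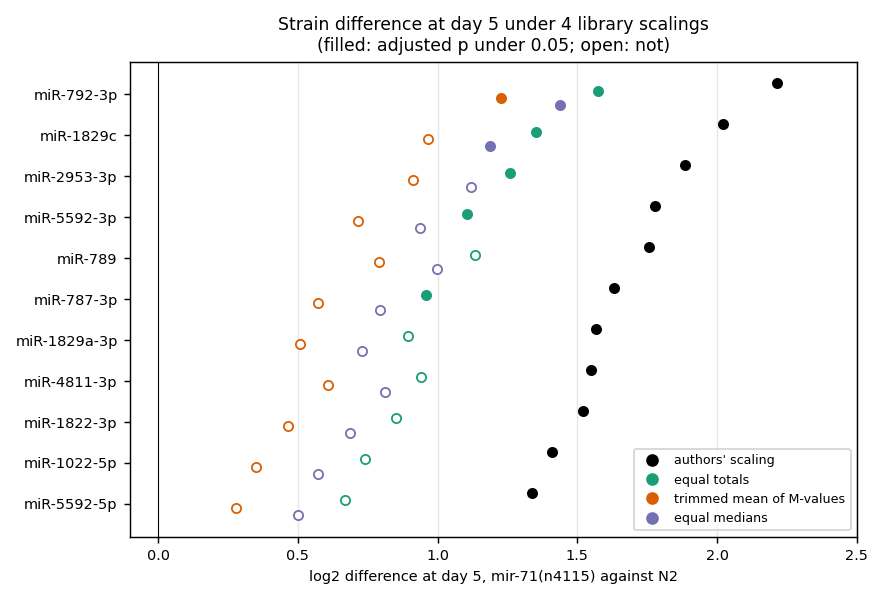
Log2 difference between mir-71(n4115) mutants and N2 at day 5 for the 11 members called higher, under the authors' scaling and 3 others. Filled points passed the test (adjusted p under 0.05). All differences stay above 0, and only miR-792-3p is filled under all 4 scalings.

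The 6 other calls were lost under each of the 3 other scalings. miR-789, from 2 genes on chromosome IV, had 25.9, 17.1 and 20.6 normalised reads in mutants at day 5, against 6.13, 6.19 and 4.32 in N2 at day 5, a difference of 1.76 ± 0.49 (limma adjusted p = 0.021). miR-1829a-3p, whose mutant values are given above, had 55.1, 108 and 126 in N2 at day 5, a difference of 1.57 ± 0.49 (limma adjusted p = 0.0368). miR-4811-3p had 27.1, 12.5 and 12.5 in mutants and 4.901, 3.38 and 6.92 in N2, a difference of 1.55 ± 0.54 (limma adjusted p = 0.0482). The strains did not overlap at day 5 in these 3. miR-1822-3p had 418, 212 and 229.9 in mutants and 83.3, 69.2 and 147 in N2, a difference of 1.52 ± 0.46 (limma adjusted p = 0.0278). miR-1022-5p had 723, 286 and 344 in mutants and 194, 134 and 144 in N2, a difference of 1.41 ± 0.40 (limma adjusted p = 0.0224). miR-5592-5p had 302, 162 and 348 in mutants and 126, 71.4 and 115 in N2, a difference of 1.34 ± 0.43 (limma adjusted p = 0.0386). In these 3 as well every mutant value lay above every N2 value. At day 0 the values of these microRNAs overlapped between the strains except for miR-5592-5p, which had 162, 216 and 103 normalised reads in mutants, against 102, 92.6 and 75 in N2. Its difference at day 0 was 0.78 ± 0.43 (limma adjusted p = 0.966). In all, the strains did not overlap at day 5 in 21 of the 46 (45.7%), against 41.7% of the 211.

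None of the 11 strain calls held in every fit that left out a library. Dropping replicate 1 of the day 5 mutants, the library with the highest values, left 0 calls, and so did dropping replicate 1 or replicate 2 of day 5 N2. In that order, these fits called 1, 6 and 3 of all 211. Dropping replicate 3 of the day 5 mutants left 4, dropping replicate 3 of the day 0 mutants left 7, and dropping replicate 2 of the day 5 mutants gave 18. Of all 211, 25, 33 and 72 were called in the same order. With the replicate number as a block, 21 members were called, all higher in mutants, against 96 of all 211, 95 of them higher. With the trimmed mean of M-values 2 were called, against 21 of all 211. They were miR-792-3p, higher, and miR-2210-3p, lower (−1.47, limma adjusted p = 0.0348). Without any scaling change, miR-2210-3p had 14.8, 9.87 and 8.95 normalised reads in mutants at day 5 and 24.5, 10.1 and 15.6 in N2 at day 5, which overlapped.

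Of the most abundant members, miR-5592-3p had 959.6, 229.6 and 477 normalised reads in mutants at day 0, against 422, 181 and 180.3 in N2 at day 0. miR-1829a-5p had 477, 161 and 380.3 in mutants at day 0, against 295, 269 and 263 in N2. miR-787-3p had 630.4, 255 and 554 in mutants, against 452, 328 and 305 in N2. In each of these 3 the strains overlapped at day 0. Overlap was also seen for miR-1022-5p, with 467, 335 and 354 in mutants at day 0, against 329.9, 395 and 313 in N2. The same held for miR-1829c, with 324, 80.7 and 223 in mutants at day 0, against 191, 87.01 and 123 in N2.

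At day 0 none of the 46 differed between the strains past the threshold, nor did any of the 211 microRNAs (0%). Before adjustment, limma put miR-792-3p and miR-5549-3p, 2 of the 46, under 0.05, against 5 of all 211. The smallest limma adjusted p among the members was 0.903. At day 0 the strains did not overlap in 3 of the 46 (6.5%, against 4.74% of the 211), and the median difference was 0.30 among the members and 0.27 among all 211. miR-5549-3p, with a difference of 1.87 ± 0.73, rested on 16 reads in mutants and 3 in N2 at day 0, a ratio of 4.48 in normalised reads with a 95% exact counting interval of 1.28 to 24.

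For 5 genes both arms were measured, and the share of the 5p arm in the sum of both describes which arm was the more abundant. mir-1829a and mir-2214 gave mainly the 5p arm, and mir-788, mir-4816 and mir-5592 mainly the 3p arm, in all 4 groups. For mir-2214 the 5p share was 79.4 ± 3.56% in mutants at day 5 and 91.7 ± 6.25% in mutants at day 0 (SD, n = 3 each). In N2 it was 84.02 ± 7.86% at day 5 and 95.4 ± 2.48% at day 0 (SD, n = 3 each). The shares of the 2 ages did not overlap in either strain, although in N2 the highest at day 5 (93.03%) came close to the lowest at day 0 (93.2%). With 3 libraries against 3, an exact two-sided permutation test of this share cannot go below p = 0.1, and none was run.

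For mir-788 the 5p share was 16.04 ± 0.988% in mutants at day 5 and 11.7 ± 7.49% in mutants at day 0 (SD, n = 3 each). In N2 it was 21.4 ± 3.31% at day 5 and 10.02 ± 4.10% at day 0 (SD, n = 3 each). The N2 shares ran from 18.6% to 25% at day 5 and from 6.63% to 14.6% at day 0, without overlap, while the mutant shares overlapped. miR-788-5p itself, unlike the 3p arm, did not pass over both strains (−0.70 ± 0.34, limma adjusted p = 0.129). The 5p share of mir-1829a averaged between 69.6% and 77.9% in the 4 groups, that of mir-4816 between 16.05% and 26.4%, and that of mir-5592 between 21.7% and 27.6%. For mir-4816 and mir-5592 the ages overlapped in both strains. For mir-1829a they overlapped in N2, whereas in mutants the 65.7% to 73.5% at day 5 lay below the 74.8% to 79.7% at day 0.

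The mir-1829 letter family, in which mir-1829a, mir-1829b and mir-1829c lie in introns of different genes on chromosome X, spanned a wide range of levels. Against means of 387 normalised reads for miR-1829a-5p and 234 for miR-1829c, miR-1829b had a mean of 11.95. How reads that fit several copies were counted is not given in the sources used here, so the levels of the 3 are uncertain relative to each other. Over both strains none passed the test of age, with 0.49 ± 0.32 for miR-1829a-5p, −0.32 ± 0.59 for miR-1829b and 0.54 ± 0.39 for miR-1829c (limma adjusted p = 0.243, 0.711 and 0.282 in that order). miR-4812-5p, from the same piki-1 gene as miR-1829c, had a difference between strains at day 5 of 0.18 ± 0.43 (limma adjusted p = 0.732), beside 2.02 for miR-1829c; the 2 values were not tested against each other.

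miR-786-3p, the member with a known intestinal role, had 323, 262 and 325 normalised reads in mutants at day 5, against 105, 344 and 103 in mutants at day 0. Its values in N2 were 174, 227 and 219 at day 5 and 243, 155 and 152 at day 0. The ages overlapped in both strains, and the change over both was 0.58 ± 0.32 (limma adjusted p = 0.18). Its partner mir-240 lies 32 bases away on the same strand, and neither arm of it passed either, with −0.73 ± 0.32 for miR-240-3p (limma adjusted p = 0.0914) and 0.63 ± 0.36 for miR-240-5p (limma adjusted p = 0.193).

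Markers of single tissues moved with some of these results. The 8 measured 3p arms of the mir-35 to mir-42 group, which mark germline and embryo, were all higher at day 5 over both strains (limma adjusted p from 0.000634 to 0.0398). Their summed level ran from 108135 to 346010 normalised reads in mutants at day 5, against 14147 to 154730 in mutants at day 0. In N2 it ran from 143403 to 238057 at day 5, against 23098 to 97947 at day 0. miR-41-3p was at 0 in replicate 2 of the mutants at day 0 and in replicates 2 and 3 of N2 at day 0. The markers of muscle (miR-1-3p), intestine (miR-60-3p), glia (miR-228-5p) and neurons (lsy-6 and miR-124-3p) did not pass over both strains. In N2 alone, where 8 members were called lower with age, lsy-6 also fell (−2.08 ± 0.71, limma adjusted p = 0.0447). It stood at 0, 5.06 and 6.05 normalised reads in N2 at day 5. The other neuron marker, miR-124-3p, did not pass in N2 (−0.35 ± 0.55, limma adjusted p = 0.692). Nor did the markers of muscle, intestine and glia (limma adjusted p from 0.178 to 0.441). Between mutants and N2 at day 5, lsy-6 (3.35 ± 0.71, limma adjusted p = 0.00953), miR-124-3p (1.86 ± 0.55, 0.0262) and miR-60-3p (1.5 ± 0.52, 0.0482) were higher in mutants. The muscle (1.42 ± 0.65, limma adjusted p = 0.0998) and glia (1.13 ± 0.50, 0.0913) markers were positive too but missed the threshold. The germline arms ran from −0.52 for miR-35-3p to 1.02 for miR-41-3p, all short of it. Over all 211 microRNAs the median difference was 0.98, and 185 were positive. These marker values hold for the authors' scaling, and other scalings moved that median by −0.66 to −1.05. The part of the tissues named here in the changes of the later-found microRNAs was not tested.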

How the data were processed

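The authors deposited a signal, normalised read counts of 213 mature microRNAs in 12 libraries, and a log2 version of it whose transformation is not stated. Per the submitters' processing notes, STAR 2.4.0h, DESeq2 and genome build WBcel235 were used, with trimming, counting rules and microRNA release not given in the sources used here. Groups and replicate numbers come from the sample titles. Per library, 100% of values fell within 0.001 of whole multiples of a step, read as 1 read. A formal check of that reading was not passed, so it rests on the values and no count test was run. Read numbers depend on it, and counting intervals cover counting error only.

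Here 1 was added to the deposited values, log2 was taken and 4 group means were fitted with limma 3.58.1 under R 4.3.3, using an intensity trend and leaving 8 residual degrees of freedom. A filter at a mean of 5 removed 0 rows. Two-sided p-values were adjusted by Benjamini-Hochberg over all 213 rows and called under 0.05. Counts for the strain comparisons and for the difference of age changes leave out the 2 mir-71 products. Errors of log2 values are limma standard errors. The procedure was tested on simulated data.

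The members, lists and naming rule were chosen with earlier results of these data known. Named were all called members (with more than 12 calls, the 6 largest rises and 6 largest falls), the 6 most and 3 least abundant, and genes with both arms measured. All 41 names matched the Ensembl annotation. Mature sequences and seeds were not used here. Same-numbered libraries deviated together between mutants and N2 (correlations of deviations from group means of 0.247 to 0.56 at day 0 and 0.335 to 0.466 at day 5) and between the mutant ages (0.113 to 0.386), so these comparisons are given with the replicate block where it moved the count. Alternatives covered pseudocounts, a stricter filter, 3 scalings, the deposited log2 values, the replicate block, no trend, the compared groups alone and each library left out.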

Additional observations from a re-analysis of the deposited data

How the results depend on the processing

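No sign changed in the 43 named calls under the settings tried, which gave 924 further values. Of these, 776 kept the call and 148 lost it, 108 of them with a library left out and 40 under other settings. In mutants, 8 were called with age, 17 with equal totals, 20 with equal medians, 14 by the trimmed mean of M-values and 1 in a fit of the mutant groups only. Over all 213 the counts in that order were 29, 71, 75, 56 and 3. In N2, 12 were called, 21 with equal totals and 19 with equal medians, against 50, 94 and 75 of all 213. Over both strains 19 were called, 30 with equal totals and 12 with a mean of at least 20, a filter that removed scarce members. These stand against 72 and 127 of 213, and 59 of the 170 that the filter kept. Between mutants and N2 at day 5, 11 were called, 5 with equal totals, 2 with equal medians and 2 by the trimmed mean of M-values. Over all 211 the counts in that order were 48, 28, 29 and 21. Leaving out 1 library gave 2 to 9 calls in mutants, 3 to 16 in N2, 14 to 20 over both strains and 0 to 18 between strains at day 5. Over all 213 the ranges were 6 to 44 in mutants, 10 to 67 in N2 and 50 to 81 over both strains. Between strains at day 5 the range was 1 to 75 of the 211. The strain comparison at day 0 and the difference of age changes had 0 calls under every setting. With the replicate block, 17 were called in mutants, 20 in N2, 21 over both strains and 21 between strains at day 5. In that order, 67, 86 and 90 of all 213 and 96 of the 211 were called. Deviations of same-numbered N2 libraries of the 2 ages correlated only between −0.0195 and 0.128. Whether these libraries were handled together is not given in the sources used here. Reasons for these shifts were not tested. The mean level was under 20 normalised reads in 18 of the 46; what depth limits in them was not tested.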
